A study of Mus musculus with 9 samples.

Results

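*H19*, *Mir675* and *Igf2* lie together in an imprinted region of mouse chromosome 7, and all 3 have an entry in the gene expression table of this RNA-seq series. They were taken by symbol, 3 of the 15074 genes used, and their levels in all 9 libraries are described by cell line and day. The genes were chosen by their FPKM levels in these same libraries, so the levels are given as a description with no test. *H19* encodes a long noncoding RNA that is normally transcribed from the maternal chromosome, and *Mir675* is a microRNA gene that lies within *H19*. *Igf2* encodes insulin-like growth factor 2, a growth factor of the embryo that is normally transcribed from the paternal chromosome. Both genes use shared enhancers, and a control region between them is methylated on the paternal chromosome and bound by the insulator protein CTCF on the unmethylated maternal one. DNMT1, the maintenance DNA methyltransferase, copies such methylation after each DNA replication.

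The libraries came from 3 mouse ESC lines. WT cells were J1 ESCs. 1KO cells were *Dnmt1*-/- ESCs that had been derived from J1. 1KO+1CI cells were *Dnmt1*-/- ESCs that also carried a transgene for a catalytically inactive DNMT1 protein, driven by the CAG promoter and linked to a zeocin resistance gene. Each line was sampled as ESCs (day 0), which had been grown with serum and LIF on mitomycin C-treated mouse embryonic fibroblasts, and at days 2 and 4 of differentiation into epiblast-like cells (EpiLCs). For differentiation, feeder cells were depleted by pre-plating on gelatin, embryoid bodies were formed for 1 day in medium without LIF, and adherent culture followed in the same medium. The transgenic line has 1 column per day in the table, which carries a number that is presumably that of a clone. Each of the 9 conditions had 1 library, so there is no replicate error to set a difference against. A model of line plus day across the libraries is possible but was not fitted, and no p-value is given.

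The values are FPKM, reads per kilobase of transcript, scaled to library size. Library depth, recovered from the values, was 20135000 to 28000000 counted reads. The counting intervals below are 95% intervals that cover counting error only, and reads of *H19* and *Igf2* behind them are approximate (378 to 33000 and 276 to 3798 per library). *Dnmt1* itself was at 74.0, 80.4 and 48.5 FPKM in WT at days 0, 2 and 4, at 13.7, 17.4 and 12.3 FPKM in the 1KO line, and at 315, 129 and 158 FPKM in the transgenic line, in the order that the genotype labels give. Reads of the disrupted gene and of the transgene cannot be told apart in these values. The pluripotency factors *Pou5f1* and *Sox2* were present in every library, at 632 to 1008 FPKM and 59.1 to 206 FPKM. Of 10 pluripotency markers listed, both included, 7 were at least 2-fold lower at day 4 than at day 0 for WT. The number was 6 for either mutant line, and the shares over all genes were 5.23% to 6.66%. Of 6 epiblast markers, 4 were at least 2-fold above WT at day 2 for either mutant line. Shares of all genes there were 1.97% (1KO) and 2.79% (1KO+1CI).

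On the GRCm38 build (GENCODE release M21), *H19* spans chr7:142575529-142578143, *Mir675* chr7:142577064-142577147 and *Igf2* chr7:142650766-142666816, all on the minus strand. The starts of *H19* and *Igf2* are 88.7 kb apart, and 72.6 kb separate the genes. The *Mir675* hairpin lies in exon 1 of the longest annotated *H19* transcript, which has 2286 bases in 5 exons, at bases 997 to 1080. The stretch of *H19* exon 1 around the hairpin, chr7:142577004-142577207 on the minus strand, is shown because the bases counted for *Mir675* lie within *H19*. The 84 bases of the hairpin are in capitals (GRCm38).
H19 exon 1 window: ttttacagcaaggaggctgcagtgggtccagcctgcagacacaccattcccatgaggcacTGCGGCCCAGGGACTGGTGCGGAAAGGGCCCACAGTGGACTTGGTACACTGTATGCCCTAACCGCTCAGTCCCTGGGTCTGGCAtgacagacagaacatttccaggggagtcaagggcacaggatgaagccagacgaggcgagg

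The mature microRNAs that are cut from this hairpin are shown with their seed, bases 2 to 8, in capitals, as given by RefSeq for GRCm38.p6. No other mature mouse microRNA in that table carries either seed. The libraries were made from poly(A) RNA, so the *Mir675* entry counts fragments of the host transcript over the hairpin, and the mature microRNAs were not measured.
miR-675-5p: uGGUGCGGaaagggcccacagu
miR-675-3p: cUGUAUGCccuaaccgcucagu

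*Igf2* has 4 promoter windows of 300 bases in RefSeq (GRCm38.p6). CpG, the dinucleotide that DNMT1 methylates, occurs 2, 14, 24 and 7 times in windows 1 to 4, counted from the most upstream start, against a median of 7 over 32851 windows. The richest, at chr7:142658755-142659054 on the minus strand, is shown with each CG in capitals, and 19.98% of all windows hold at least as many. FPKM values of a whole gene do not separate transcripts from these starts, and methylation was not measured in the values used here.
Igf2 promoter window 3: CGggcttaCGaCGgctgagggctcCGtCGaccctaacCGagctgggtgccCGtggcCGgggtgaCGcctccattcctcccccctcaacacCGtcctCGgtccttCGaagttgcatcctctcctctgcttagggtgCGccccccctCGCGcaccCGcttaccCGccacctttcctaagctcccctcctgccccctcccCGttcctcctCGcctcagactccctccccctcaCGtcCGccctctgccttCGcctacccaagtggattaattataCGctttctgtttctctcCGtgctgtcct

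*H19* was higher in 1KO than in WT at every day. In WT cells it was at 53.0 FPKM at day 0, 6.80 FPKM at day 2 and 7.98 FPKM at day 4. In 1KO cells it was at 516, 86.7 and 184 FPKM on the same days. The 1KO+1CI libraries were at 197, 87.9 and 190 FPKM. All 6 libraries of the mutant lines therefore lay above all 3 WT libraries, and the groups did not overlap even across days. The same held for 2.30% of the 13288 genes with at least 1 FPKM in some library. The lowest mutant library (1KO at day 2) was 1.64-fold above the highest WT library (day 0), with a counting interval of 1.56 to 1.72.

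**Figure D1:**
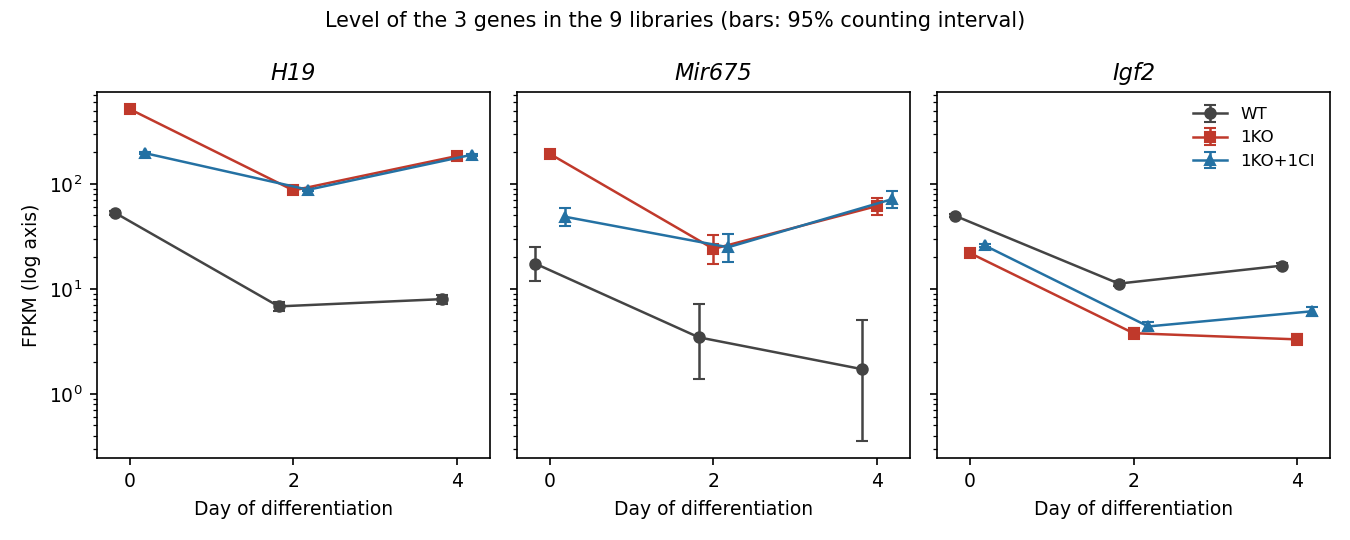
FPKM of *H19*, *Mir675* and *Igf2* on a log axis against the day of differentiation in the single library of each line and day, with 95% counting intervals as bars and points of the lines set slightly apart. *H19* lies between 86.7 and 516 FPKM in the mutant lines and between 6.80 and 53.0 FPKM in WT, while *Igf2* is highest in WT at each day.

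On the log2(FPKM + 1) scale, 1KO exceeded WT in *H19* by 3.26 at day 0, by 3.49 at day 2 and by 4.37 at day 4. As ratios of FPKM these were 9.73-fold (counting interval 9.34 to 10.1), 12.7-fold (11.5 to 14.2) and 23.1-fold (20.9 to 25.7). At least 2-fold higher values on the same scale were found for 2.69%, 1.97% and 2.05% of the 12528, 12211 and 12264 genes tested at days 0, 2 and 4. In rank, *H19* moved from above 51.0% of all genes in WT at day 2 to above 95.02% in 1KO. At day 0, it already exceeded 91.2% of genes in WT and 99.3% in 1KO. In these bulk libraries, more cells that transcribe a gene and more RNA of it per cell cannot be told apart.

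1KO+1CI cells had a lower *H19* level than 1KO cells at day 0 and, in the deposited FPKM, levels within counting error of theirs later. At day 0, *H19* was 2.62-fold lower in 1KO+1CI than in 1KO (counting interval 2.56 to 2.68), a difference of -1.39 on the log2(FPKM + 1) scale, and it was still 3.71-fold above WT (3.55 to 3.88). A share of 0.292% of 12340 genes were at least 2-fold lower in that comparison. At days 2 and 4 the ratio of 1KO+1CI to 1KO was 1.01 (0.971 to 1.06) and 1.03 (0.998 to 1.06). Both intervals hold 1. At day 4 this depends on the scaling. With values scaled to equal sums (TPM), the difference was 0.0932 on the log2(FPKM + 1) scale, above its interval of -0.0022 to 0.0814. Against WT, *H19* in 1KO+1CI was 12.9-fold higher at day 2 and 23.7-fold higher at day 4, beside background shares of 2.79% and 3.68% (3.05% at day 0). Comparisons of 1KO with WT and of 1KO+1CI with 1KO share the 1KO libraries, and with 1 clone column and 1 library per day the transgene, the clone and the culture cannot be told apart.

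Over time, *H19* was lower at day 2 than at day 0 in all 3 lines. In WT the fold was 7.79 (counting interval 6.99 to 8.70). It was 5.95 (5.76 to 6.14) for the 1KO line and 2.24 (2.16 to 2.32) for 1KO+1CI. At least 2-fold lower at day 2 were 4.71%, 4.01% and 3.99% of genes in WT, 1KO and 1KO+1CI, and at least 2-fold higher were 2.65%, 1.68% and 2.18%. From day 2 to day 4 it was 2.13-fold higher in 1KO (2.05 to 2.21) and 2.16-fold higher in 1KO+1CI (2.08 to 2.24), where 4.70% and 4.36% of genes were at least 2-fold higher and 4.39% and 3.74% at least 2-fold lower. The corresponding WT ratio was 1.17 (1.015 to 1.36), with 4.68% of genes higher and 5.25% lower. The day 4 level was 6.64-fold below day 0 in WT and 2.80-fold below it in 1KO, while in 1KO+1CI the ratio of day 4 to day 0 was 0.964 (0.937 to 0.991). Between these days, 5.23%, 6.12% and 6.66% of genes were at least 2-fold lower in WT, 1KO and 1KO+1CI, and 2.40%, 4.97% and 5.68% at least 2-fold higher. Ordered by level, the 9 libraries ran from 1KO at day 0 down to WT at day 2. The neighbours in this order whose ratio was within counting error were the 1KO and 1KO+1CI libraries of day 4 and those of day 2.

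*Mir675* had the same order of lines, from far fewer reads. WT libraries held 30, 7 and 3 reads at days 0, 2 and 4 (17.4, 3.45 and 1.71 FPKM). In 1KO there were about 451, 42 and 116 reads (193, 24.0 and 61.6 FPKM), and in 1KO+1CI there were 97, 44 and 120 reads (48.7, 24.9 and 71.5 FPKM). Every mutant library again exceeded every WT library (2.30% of genes, as above), but 1KO at day 2 and WT at day 0 were within counting error of each other (ratio 1.38, 0.843 to 2.28). Divided by WT, 1KO gave 11.1 at day 0 (7.66 to 16.6), then 6.96 at day 2 (3.10 to 18.4) and 35.9 at day 4 (12.0 to 177). The last interval is wide because it rests on 3 WT reads.

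Per length, *Mir675* stood at 0.215 to 0.507 of the *H19* level in the 9 libraries. In the deepest-covered library, 1KO at day 0, the ratio of *Mir675* to *H19* FPKM was 0.375 (counting interval 0.341 to 0.411), and in 1KO+1CI at day 0 it was 0.248 (0.201 to 0.303). These intervals do not overlap. In 1KO+1CI at day 4 the ratio was 0.377 (0.312 to 0.451), and in WT the intervals spanned 0.221 to 0.471 at day 0, 0.203 to 1.06 at day 2 and 0.0441 to 0.632 at day 4. Intervals of WT and 1KO overlapped on each day. *Mir675* is not independent evidence for *H19*, since its reads lie within that transcript. The genes of microRNA processing enzymes are given for completeness: of 6 measured (*Drosha*, *Dgcr8*, *Dicer1*, *Xpo5*, *Ago1* and *Ago2*), 0 were past 2-fold in the 9 comparisons between lines. In these, 0.188% to 3.68% of all genes were at least 2-fold higher and 0.229% to 2.36% at least 2-fold lower, so 0 of 6 is near the share over all genes.

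*Igf2* went the other way at each day. In WT it was at 49.6, 11.2 and 16.7 FPKM at days 0, 2 and 4. The 1KO libraries were at 22.0, 3.78 and 3.30 FPKM. Those of 1KO+1CI were at 25.9, 4.38 and 6.11 FPKM. On each day WT was the highest of the 3 lines, an order found for 11.8% of the same 13288 genes, but across days the groups overlapped, because both mutant libraries of day 0 lay above the WT libraries of days 2 and 4.

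In 1KO, *Igf2* was 2.26-fold below WT at day 0 (counting interval 2.15 to 2.38), 2.97-fold at day 2 (2.60 to 3.39) and 5.05-fold at day 4 (4.43 to 5.77). The differences were -1.14, -1.35 and -2.04 on the log2(FPKM + 1) scale, and 1.87%, 0.819% and 0.726% of all genes tested were at least 2-fold lower in the same comparisons. Against WT, 1KO+1CI was 1.91-fold lower at day 0, 2.56-fold lower at day 2 and 2.73-fold lower at day 4. The day 0 difference of -0.91 did not reach 2-fold on the log2(FPKM + 1) scale, the others did, beside backgrounds of 2.36%, 1.54% and 1.25%. Between the mutant lines, the ratio of 1KO+1CI to 1KO for *Igf2* reached 1.85 at day 4 (1.59 to 2.16), after 1.18 at day 0 (1.11 to 1.25) and 1.16 at day 2 (0.990 to 1.36). None of these passed 2-fold, where 0.219%, 0.188% and 0.763% of genes were at least 2-fold higher and 0.292%, 0.229% and 0.357% at least 2-fold lower.

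Like *H19*, *Igf2* was lower at day 2 than at day 0 in each line, namely 4.43-fold in WT, 5.81-fold for 1KO and 5.91-fold for 1KO+1CI. From day 2 to day 4 the WT ratio was 1.49 (1.37 to 1.61), that of 1KO was 0.873 (0.738 to 1.03) and that of 1KO+1CI was 1.39 (1.21 to 1.61). In the order of levels, neighbours within counting error were 1KO+1CI and 1KO at day 2, and 1KO at days 2 and 4. The *H19* to *Igf2* ratio of FPKM combined both genes. It was 1.07, 0.607 and 0.479 in WT at days 0, 2 and 4, against 23.5, 22.9 and 55.9 in 1KO and 7.59, 20.05 and 31.0 in 1KO+1CI. The highest WT value of this ratio was 1.07 and the lowest mutant value 7.59. *H19* alone already separated WT from the mutant lines, and both genes were chosen by these levels. No share over other pairs of genes was taken.

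Neighbouring genes were examined with lists written from general knowledge. Of 12 genes listed for the domain around *H19* and *Igf2* besides the members, 6 had an entry, and 1, *Ascl2*, a transcription factor gene of the trophoblast lineage, passed 2-fold between lines. *Ascl2* starts 391 kb from the *H19* start, close to *Tspan32* (427 kb), which was listed for the adjacent domain described below. It may belong to that domain instead, and then no listed gene of the *H19* and *Igf2* domain passed 2-fold between lines. *Ascl2* was at 0.750, 1.68 and 2.48 FPKM in WT, 2.68, 4.52 and 1.70 FPKM for 1KO and 1.35, 4.47 and 0.984 FPKM in 1KO+1CI at days 0, 2 and 4. It was past 2-fold in 1KO against WT at days 0 and 2 and in 1KO+1CI against WT at day 2. In these comparisons 2.69%, 1.97% and 2.79% of all genes were at least 2-fold higher. The mitochondrial ribosomal protein gene *Mrpl23* stayed between 36.4 and 55.6 FPKM, and the cathepsin D gene *Ctsd* between 103 and 174 FPKM. The muscle troponin gene *Tnnt3* and the leukocyte gene *Lsp1* were at most 1.73 and 4.22 FPKM. *Igf2os*, which overlaps *Igf2* in antisense, was at most 0.544 FPKM, and whether the counting used strand is not given in the sources used here. Over the genes of this list that could be tested (5, 3 and 3 at days 0, 2 and 4), the median difference of 1KO from WT was 0.23, -0.09 and 0.17, beside -0.01, -0.01 and 0.00 over all genes tested.

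**Figure D2:**
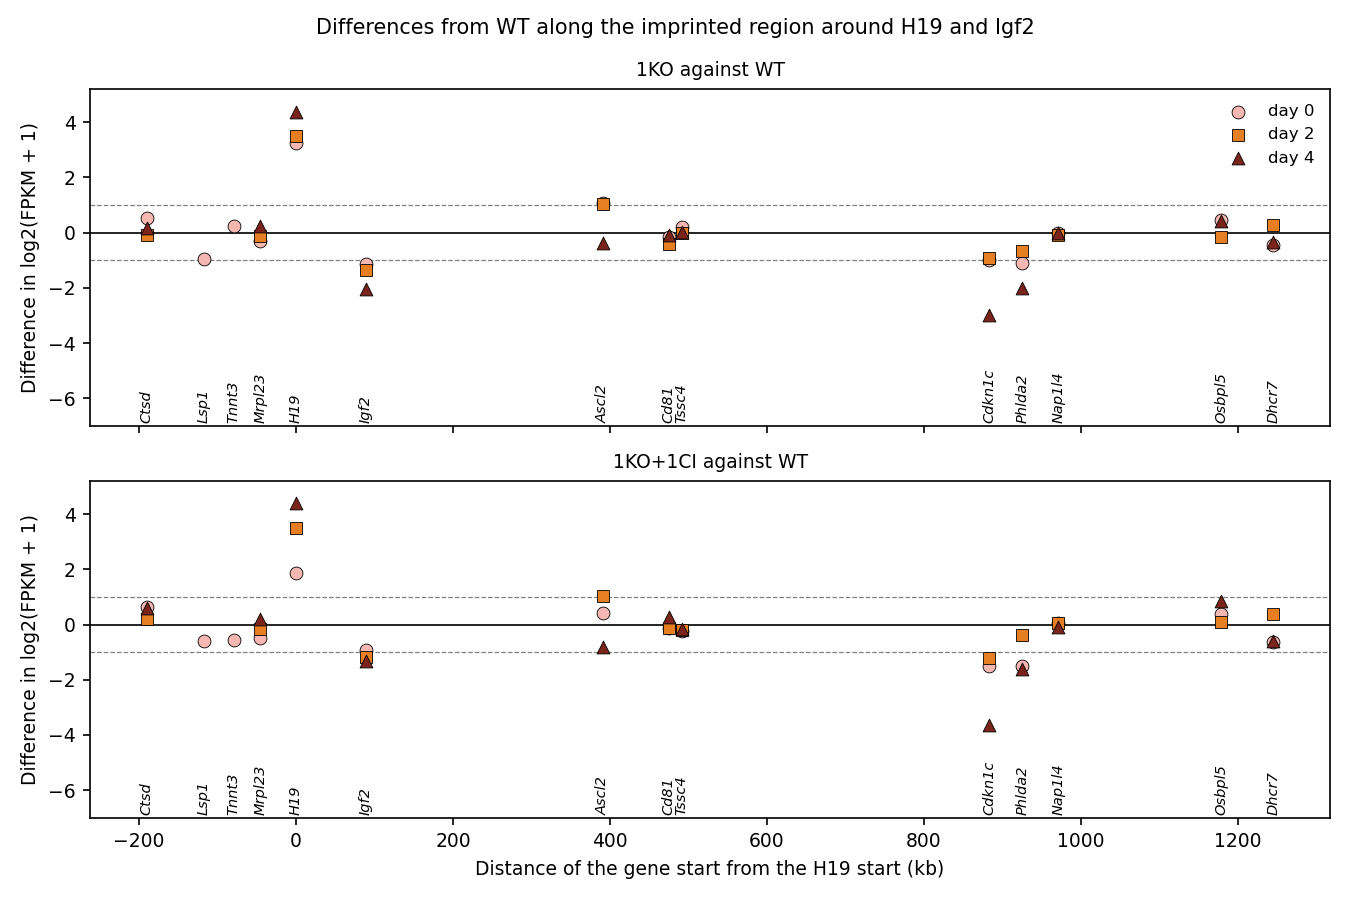
Difference from WT in log2(FPKM + 1) for genes of the imprinted region that reached 1 FPKM in either library of the pair, against the distance of the gene start from the *H19* start in kb, for 1KO (top) and 1KO+1CI (bottom). Symbols mark days, dashed lines mark 2-fold, and *H19* (up to 4.37 in 1KO) stands apart from neighbours such as *Mrpl23* and *Ctsd*. *Igf2* (down to -2.04 in 1KO), *Cdkn1c* and *Phlda2* are lower than in WT in both mutant lines. At day 4, *Cdkn1c* lies below *Igf2* in both lines.

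The adjacent domain holds *Cdkn1c*, which encodes a cell cycle inhibitor, and *Phlda2*, both normally expressed from the maternal chromosome and both growth-restraining. *Cdkn1c* was at 17.5, 21.8 and 42.7 FPKM in WT at days 0, 2 and 4, at 8.32, 11.1 and 4.45 FPKM for 1KO and at 5.59, 8.86 and 2.49 FPKM in 1KO+1CI. For *Phlda2* the values were 48.5, 17.9 and 36.9 FPKM in WT, 21.9, 11.0 and 8.41 FPKM for 1KO and 16.5, 13.4 and 11.5 FPKM in 1KO+1CI. At each day both genes were highest in WT, as *Igf2* was. At day 4, *Cdkn1c* lay further below WT than *Igf2* did in both mutant lines. Of 7 genes of this list tested in 1KO against WT, 1 (*Phlda2*) was at least 2-fold lower at day 0, 0 at day 2 and 2 (both) at day 4, and 0 were higher. The list leaves out *Ascl2*, which may belong to this domain and was at least 2-fold higher in 1KO at days 0 and 2. The list medians were -0.15, -0.15 and -0.09, and 1.87%, 0.819% and 0.726% of all genes were at least 2-fold lower. In 1KO+1CI against WT, 2 of 7 (both) were lower at day 0, 1 (*Cdkn1c*) at day 2 and 2 (both) at day 4. There, 2.36%, 1.54% and 1.25% of all genes were. The other listed genes with an entry (*Cd81*, *Tssc4*, *Nap1l4*, *Osbpl5*, *Dhcr7* and *Tspan32*) passed 2-fold in none of the 9 comparisons between lines, and *Kcnq1ot1*, the noncoding RNA of that domain, was at most 0.0790 FPKM.

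*H19* is 1 of few loci whose control region carries paternal methylation. Of 8 genes listed for the other such regions, 7 had an entry. *Mirg*, a maternal noncoding RNA of the *Dlk1*-*Meg3* region, was at 5.79, 9.29 and 12.0 FPKM in WT and at 12.8, 19.8 and 26.2 FPKM in 1KO, past 2-fold at each day. *Dlk1*, which is normally paternal, was at 0.736 FPKM in WT and 3.25 FPKM in 1KO at day 0. *Meg3* and *Rian* were at 24.7 and 70.5 FPKM in WT and 18.6 and 81.3 FPKM in 1KO at day 0, and at 23.9 and 118 FPKM against 47.8 and 209 FPKM at day 4. Of the 6, 6 and 5 genes tested at days 0, 2 and 4, 2, 1 and 1 were at least 2-fold higher in 1KO and 0 were lower, with medians of 0.48, 0.80 and 0.82, beside 2.69%, 1.97% and 2.05% of all genes higher. In 1KO+1CI against WT, 2 of 5 were at least 2-fold higher at day 0 (*Dlk1* and *Mirg*), 4 of 6 at day 2 (*Dlk1*, *Meg3*, *Rian* and *Mirg*) and 0 of 6 at day 4, with medians of 0.50, 1.24 and 0.49, beside 3.05%, 2.79% and 3.68% of all genes. *Zdbf2*, *Rtl1* and *Dio3* were past 2-fold in none of the comparisons between lines.

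IGF2 acts through the receptors IGF1R and INSR and their adaptors IRS1 and IRS2, while IGF2R takes it up for degradation. Of these 5 genes, 1, *Irs2*, was at least 2-fold lower in 1KO than in WT at day 0 (4.78 against 14.5 FPKM), and 0 were past 2-fold at days 2 and 4. In 1KO+1CI *Irs2* was at 3.68 FPKM at day 0 and 7.09 FPKM at day 2, against 15.3 FPKM in WT at day 2, and past 2-fold on both days. *Igf1r* was at 7.26, 3.83 and 6.64 FPKM in WT and 3.38, 3.56 and 9.72 FPKM in 1KO, and *Igf2r* at 21.7, 17.0 and 15.3 FPKM against 19.5, 18.6 and 14.8 FPKM. At days 0, 2 and 4 the list median of 1KO against WT was -0.88, -0.20 and 0.15. On these days 1.87%, 0.819% and 0.726% of all genes were at least 2-fold lower in 1KO than in WT. Shares at least 2-fold higher were 2.69%, 1.97% and 2.05%. For 1KO+1CI at days 0 and 2 the lower shares were 2.36% and 1.54%.

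Binding proteins carry IGFs outside the cell. In 1KO at day 0, *Igfbp2* (179 against 409 FPKM in WT) and *Igfbp3* (30.3 against 63.1 FPKM) were at least 2-fold lower, and *Igfbp6* (4.41 against 1.28 FPKM) and *Igfbp7* (22.5 against 9.94 FPKM) at least 2-fold higher, of 7 tested. At day 2, 0 of 5 passed 2-fold, and at day 4 *Igfbp3* alone of 5 did, at 88.5 FPKM in 1KO and 31.5 FPKM in WT. The list medians were 0.09, 0.26 and 0.29. In 1KO+1CI against WT, *Igfbp7* was at least 2-fold higher and *Igfbp2* lower at day 0, of 7 tested. *Igfbp7* was higher at day 2 (7.75 against 3.38 FPKM), of 5, and *Igfbp3* at day 4, of 4. There, 3.05%, 2.79% and 3.68% of all genes were at least 2-fold higher, and 2.36%, 1.54% and 1.25% lower. Among 7 genes of proteins that bind *Igf2* or *H19* RNA, 1, *Igf2bp2*, was at least 2-fold lower in 1KO at day 0 (21.0 against 43.5 FPKM), and 0 passed at days 2 and 4. Beside the counts of both lists, 2.69%, 1.97% and 2.05% of all genes were at least 2-fold higher in 1KO at days 0, 2 and 4. Shares at least 2-fold lower were 1.87%, 0.819% and 0.726%.

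**Figure D3:**
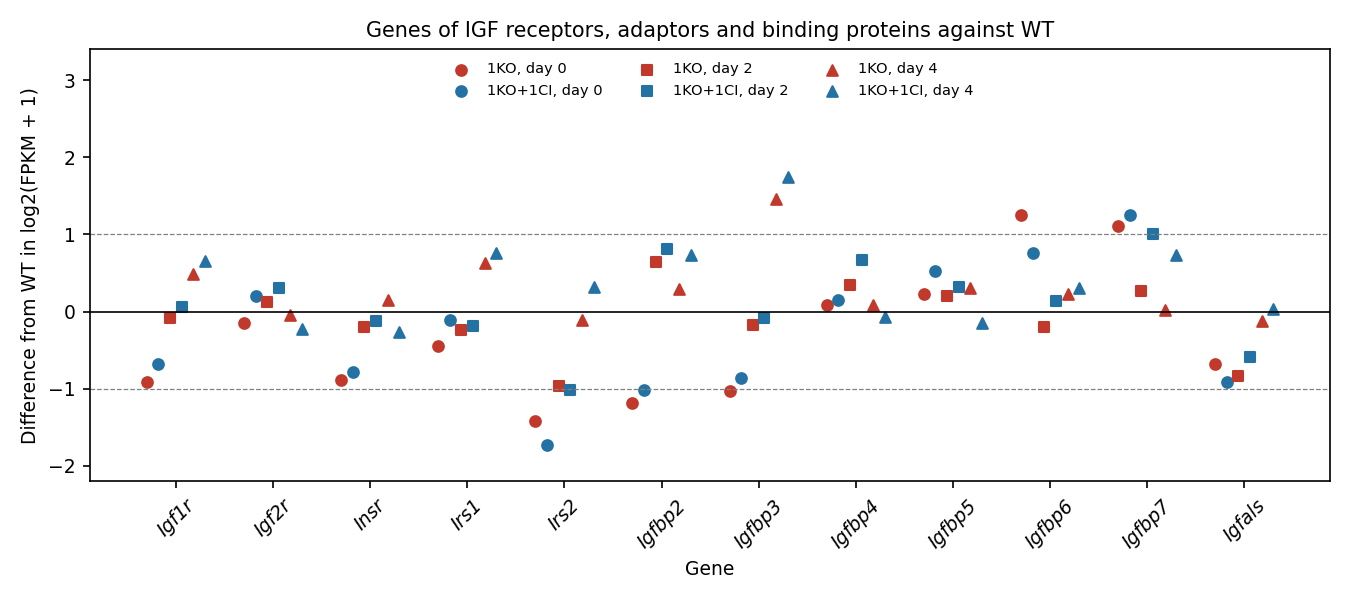
Difference from WT in log2(FPKM + 1) for genes of IGF receptors, adaptors and binding proteins with an entry, in 1KO (red) and 1KO+1CI (blue), with symbols for days and dashed lines at 2-fold. *Irs2* and *Igfbp2* lie below the lower line at day 0 in both lines, *Igfbp7* above the upper one at day 0, and *Igfbp3* above it at day 4. In 1KO+1CI, *Igfbp7* also reaches the upper line at day 2.

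Factors that read or protect the control region were listed as well. The gene of CTCF was at 48.1 to 69.0 FPKM in the 9 libraries and past 2-fold in no comparison between lines. Of 15 genes tested at day 0, 3 were at least 2-fold higher in 1KO than in WT: *Ctcfl*, a germline relative of CTCF (1.93 against 0.0895 FPKM), *Zfp57*, which protects imprints (92.7 against 37.0 FPKM), and *Dppa3* (89.7 against 35.7 FPKM). At day 2, 1 of 14 was (*Dppa3*), and at day 4, 0 of 14. Of all genes, 2.69%, 1.97% and 2.05% were at least 2-fold higher on these days. In 1KO+1CI against WT, 3 of 15 (the same genes) were higher at day 0 and 2 of 15 (*Ctcfl* and *Dppa3*) at day 2. At day 4, 0 of 14 were, beside 3.05%, 2.79% and 3.68% of all genes. Genes of the imprinted gene network, a set reported to be expressed together with *H19* and *Igf2*, went both ways. In 1KO, 2 of 15 (*Dlk1* and *Mest*) were at least 2-fold higher at day 0, 3 (*Plagl1*, *Peg3* and *Nnat*) at day 2 and 2 (*Plagl1* and *Peg3*) at day 4, and *Grb10* was lower at each day, joined by *Cdkn1c* at day 4. *Plagl1*, whose zinc finger protein is known to activate *H19* and *Igf2*, was at 2.57, 1.47 and 1.98 FPKM in WT and at 5.91, 4.69 and 11.7 FPKM in 1KO. *Peg3*, a paternally expressed zinc finger gene, was at 16.3, 12.7 and 11.6 FPKM in WT and at 28.7, 35.3 and 76.5 FPKM in 1KO. *Grb10*, an adaptor that restrains growth factor signalling, was at 40.3, 52.7 and 94.0 FPKM in WT and at 13.99, 17.05 and 9.66 FPKM in 1KO. The list medians were -0.04, 0.50 and 0.21. Shares of all genes at least 2-fold lower in 1KO were 1.87%, 0.819% and 0.726%, beside the higher shares given above. In 1KO+1CI against WT, 4, 5 and 3 of 15 network genes were higher at days 0, 2 and 4, and 2 (*Cdkn1c* and *Grb10*) lower at each day. There, 2.36%, 1.54% and 1.25% of all genes were at least 2-fold lower.

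Markers of other cell types moved with some of these levels. *H19* and *Igf2* are also transcribed in embryonic fibroblasts, endoderm, mesoderm and trophoblast. The summed FPKM of 13 of 14 feeder fibroblast markers with an entry was 166, 45.7 and 46.8 in WT at days 0, 2 and 4, 338, 59.6 and 69.0 in 1KO, and 380, 84.7 and 192 in 1KO+1CI. At day 0, 5 of 13 (*Col3a1*, *Thy1*, *Acta2*, *Fbln2* and *Prrx1*) were at least 2-fold higher in 1KO than in WT, beside 2.69% of all genes. The list median was 0.86, beside -0.015 over all genes. At days 2 and 4, 0 of 9 were at least 2-fold higher, beside 1.97% and 2.05%. The feeder sum was highest at day 0 in each line, the day on which *H19* and *Igf2* were also highest in each line. Between 1KO+1CI and 1KO at day 0, where *H19* was 2.62-fold lower, 0 of 13 feeder markers passed 2-fold. Of all genes, 0.219% were at least 2-fold higher and 0.292% lower there, so this count is near the share over all genes. The list median was 0.23, beside -0.023 over all genes. At days 2 and 4, *H19* was 12.7-fold and 23.1-fold higher in 1KO than in WT. On these days no feeder marker passed 2-fold in that comparison, but the list medians were 0.51 and 0.39. Over all genes tested the medians were -0.009 and -0.0005. In 1KO+1CI against WT, 6 of 13 feeder markers were at least 2-fold higher at day 0, 3 of 11 at day 2 (*Col1a1*, *Col1a2* and *Fbln2*) and 3 of 10 at day 4 (*Col1a2*, *Acta2* and *Fbln2*), beside 3.05%, 2.79% and 3.68% of all genes, and *H19* was 3.71-, 12.9- and 23.7-fold higher on these days. Between 1KO+1CI and 1KO at day 4, where the *H19* ratio was 1.03, 3 of 10 feeder markers (*Col1a1*, *Acta2* and *Fbln2*) were higher, beside 0.763% of all genes. *Igf2* was lower in 1KO than in WT at day 0 (22.0 against 49.6 FPKM), where the feeder sum was higher (338 against 166). The part of feeder RNA in the levels of the 3 genes was not tested.

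**Figure D4:**
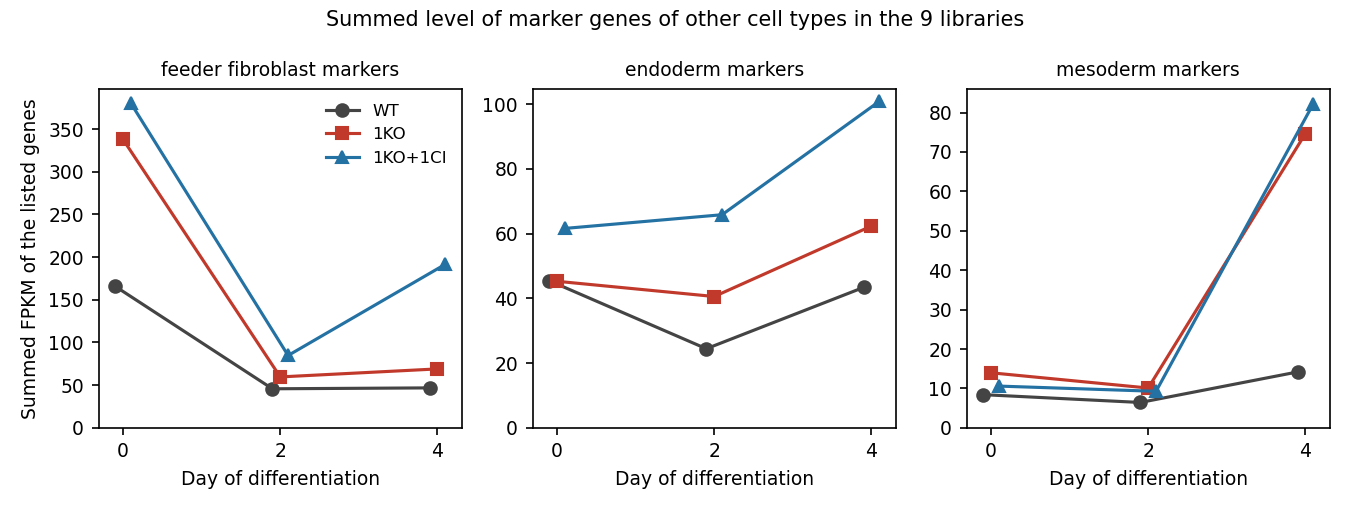
Summed FPKM of feeder fibroblast (13 genes), endoderm (11 genes) and mesoderm (8 genes) markers in the 9 libraries against the day of differentiation, with a linear axis of its own in each panel. Feeder sums are highest at day 0 (166 for WT, 338 for 1KO and 380 for 1KO+1CI), and mesoderm sums reach 74.6 in 1KO and 82.2 in 1KO+1CI at day 4 against 14.2 in WT.

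Endoderm markers (11 of 14 with an entry) summed to 24.4 to 45.5 FPKM in WT, with 40.6 to 62.4 FPKM for 1KO and 61.6 to 101 FPKM for 1KO+1CI, most of it from *Lamb1*. In 1KO against WT, 0 of 6, 1 of 5 (*Lama1*) and 3 of 7 (*Cubn*, *Foxa2* and *Lama1*) were at least 2-fold higher at days 0, 2 and 4, beside 2.69%, 1.97% and 2.05% of all genes. In 1KO+1CI against WT, 1 of 7 (*Cubn*), 5 of 6 (*Cubn*, *Gata6*, *Dab2*, *Lama1* and *Lamb1*) and 5 of 9 (*Cubn*, *Sox17*, *Foxa2*, *Dab2* and *Lama1*) were, beside 3.05%, 2.79% and 3.68%, and 0 were lower in these 6 comparisons. Mesoderm markers (8 of 12) summed to 6.44 to 14.2 FPKM in WT and to 9.27 to 13.97 FPKM in the mutant lines at days 0 and 2, then at day 4 to 74.6 FPKM (1KO) and 82.2 FPKM (1KO+1CI). In 1KO at day 4, 5 of 6 tested (*T*, *Mixl1*, *Eomes*, *Snai1* and *Lhx1*) were at least 2-fold higher than in WT, beside 2.05% of all genes, on the day when the difference in *H19* was also widest. In 1KO+1CI at day 4, 4 of 5 (*T*, *Mixl1*, *Eomes* and *Snai1*) were, beside 3.68%. *Igf2* was 5.05-fold lower in 1KO and 2.73-fold lower in 1KO+1CI than in WT on that day. Of the trophoblast markers, 6 of 11 had an entry, and their sum, mostly *Krt8* and *Krt18*, was 135 to 261 FPKM in WT, with 103 to 226 FPKM for 1KO and 90.3 to 329 FPKM for 1KO+1CI. At day 0 that sum was 108 FPKM for 1KO+1CI and 226 FPKM for 1KO, the comparison in which *H19* was lower too. There, 3 of 4 tested (*Krt8*, *Krt18* and *Hand1*) were at least 2-fold lower, beside 0.292% of all genes. In 1KO against WT, 1 of 5 (*Hand1*) was higher at day 0, 1 of 4 (*Tfap2c*) lower at day 2 and 1 of 4 (*Tfap2c*) higher at day 4. These stood beside shares of 2.69%, 0.819% and 2.05% of all genes. In 1KO+1CI against WT at day 0, 2 of 5 (*Krt8* and *Krt18*) were lower, beside 2.36%, where *H19* was 3.71-fold higher. At day 4 the sum was 329 FPKM in 1KO+1CI and 200 FPKM in 1KO, where the *H19* ratio was 1.03. Against WT, 3 of 4 (*Tfap2c*, *Krt8* and *Krt18*) were then higher in 1KO+1CI, beside 3.68%. The part of these cell types in the results was not tested.

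Patterns most like those of the members were ranked by Pearson correlation of log2(FPKM + 1) over the 9 libraries among 4952 genes, as a description over libraries that share lines and days. For *H19* they were *Mir675* (0.99), *Tex264* (0.95), *Ppp2r2c* (0.95), *Ifi35* (0.95) and *Id3* (0.94). For *Igf2* they were *Snora68* (0.98), *Tcp11* (0.94), *Snord49a* (0.93), *C2* (0.93) and *St3gal2* (0.93). *H19* and *Igf2* had a correlation of -0.10 with each other over the same libraries. By Spearman correlation, 0 of the 5 genes for *H19* and 1 of the 5 for *Igf2* were named again, so these names depend on the measure.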

How the data were processed

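RNA-seq of 9 libraries was used as deposited. Per the labels and the methods of the study, total RNA was extracted, mRNA was enriched with oligo(dT) beads, and paired reads were trimmed with Trim Galore, mapped to mm10 with HISAT2, handled with SAMtools, and counted and normalized with HOMER. The deposited values are FPKM per gene, and no counts were used. For versions, annotation release, strand setting and multi-mapping reads, the entry is: not given in the sources used here. A second table, of repeats, was not used. The gene table held 15095 entries, of which 21 (1 named 0 and 20 dates) were left out, with 0.117% or less of any library's summed FPKM.

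Differences are between single libraries in log2(FPKM + 1), which understates differences of low genes, among genes that reached 1 FPKM in either library of the pair. A gene was counted at 2-fold when this difference was at least 1 in size. The largest shift of the median over all genes was 0.0529. Depth was found as the value that brought the FPKM of genes with few reads nearest to whole reads. Of 7658 genes with 1 transcript, 883 to 945 per library were used for this. For *Mir675*, a length factor of 0.9928 was chosen to bring values below 130 reads nearest to whole reads, within 0.0184. This closeness is therefore fitted and is no check. The 1KO library of day 0, left out of that fit, was 0.307 from a whole number. Whether a unit is a read or a pair is unknown. If both reads of a pair were counted, the counting intervals would be wider than those given. Intervals are exact binomial or Poisson. The steps were tested on simulated data. The members and lists were chosen with earlier results of these data known. Genes named are the members, *Dnmt1*, all genes with an entry in the lists of both chromosome 7 domains and of the other paternally methylated regions, members of other lists past 2-fold or at the extremes, and the 5 most alike. Other genes named with values (*Igf1r*, *Igf2r*, *Ctcf*, *Pou5f1*, *Sox2*, the microRNA processing genes, and *Lamb1*, *Krt8* and *Krt18*) were added after their values were seen. Alternatives were pseudocounts of 0.1 and 0.01, TPM and median-ratio scaling, no FPKM minimum, a 1.5-fold threshold, and Spearman correlation. Python 3.11.15, numpy 2.4.6, pandas 2.3.3, scipy 1.17.1 and matplotlib 3.10.9 were used.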

Additional observations from a re-analysis of the deposited data

Results flagged for a closer look

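No member met a rule for closer inspection. Among genes of the lists, 8 pairs of comparisons lay past 2-fold in opposite directions, given here as differences in log2(FPKM + 1) between single libraries, and the difference between the paired comparisons was not tested. *Igfbp3* was higher in 1KO than in WT at day 4 (1.46) and lower at day 0 (-1.03). *Tfap2c* was higher in 1KO than in WT at day 4 (1.08) and lower at day 2 (-1.25). In 1KO+1CI against WT, *Krt18* was higher at day 4 (1.04) and lower at day 0 (-1.80), *Krt8* was higher at day 4 (1.43) and lower at day 0 (-1.66), and *Nanog* was higher at day 4 (1.45) and lower at day 2 (-1.11). *Fgf5* at day 2 was above day 0 both in 1KO (1.75) and in 1KO+1CI (1.93), and lower in WT (-1.18). *Sox3* was higher at day 2 than at day 0 in 1KO+1CI (1.26) and lower in WT (-1.19).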

How the results depend on the processing

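The 54 member differences kept their sign under each of both other pseudocounts and both other scalings, and of the 216 values, 185 moved by less than their counting interval and 31 by more. With a pseudocount of 0.1, 1KO against WT gave 3.65 for *H19* and -1.54 for *Igf2* at day 2, and -2.30 for *Igf2* at day 4. With 0.01 these were 3.67, -1.57 and -2.33, and *H19* at day 4 was 4.53. *H19* in 1KO+1CI against 1KO at day 0 was -1.32 with TPM and -1.35 with median-ratio scaling, and at day 4 it was 0.0932 with TPM. Each of these lay outside its counting interval. Genes past 2-fold, summed over the 18 comparisons, numbered 13010, against 23512 and 24953 with pseudocounts of 0.1 and 0.01 and 39890 at 1.5-fold. List genes past the threshold numbered 527, and 901 at 1.5-fold. Smaller pseudocounts let low genes pass, by construction. Spearman correlation named 0 of 5 of the same genes for *H19* and 1 of 5 for *Igf2*. Leaving out a library would remove its whole condition, so no such value exists. The labels give no replicate numbers that would pair libraries, and a model of line plus day, in which lines are compared within days, was not fitted. WT reads of *Mir675*, 3 to 30 per library, limit its ratios.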
